A study of Mus musculus with 5 samples.

Results

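The hippocampus of 5xFAD mice was compared with that of wild type mice by single-nucleus multiome sequencing, which reads nuclear RNA and open chromatin from the same nucleus. The nuclei described are those with 500 or more detected genes in 1 wild type library and 1 5xFAD library: 5235 wild type and 5176 5xFAD nuclei, 10411 in all, of the 28142 nuclei in the 5 libraries of the series. Neither group carries the knockout of monoacylglycerol lipase (Mgll) that defines the other 3 libraries, all 5xFAD, and both carry the batch label v3. Age, sex and the number of animals pooled in a library are not given in the sources used here. Transcripts of Xist marked some nuclei of each library and Y-linked transcripts marked others, so each drew on at least 1 animal of each sex. With 1 library a side there is no test between the genotypes, and a difference between libraries cannot be told apart from one between genotypes. All intervals below are exact 95% intervals that cover counting error alone.

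The 5xFAD line carries mutant human transgenes, APP among them, under the neuronal Thy1 promoter, so that amyloid is produced mainly by neurons and deposits early in the subiculum. Microglia around plaques are known to take up lipid and to switch on Apoe, Cst7 and Lpl, and oligodendrocytes near amyloid to switch on C4b and class I genes. Neurons make part of their own cholesterol through the mevalonate pathway, and cells low in sterol switch the pathway on through the transcription factor encoded by Srebf2. As a model the line is limited by its driver: the transgene is expressed where a Thy1 cassette is active, which differs between neuron types.

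RNA depth was similar in both libraries, with a median of 16754 UMIs (unique RNA molecules) per wild type nucleus and 17151 per 5xFAD nucleus and totals of 128446347 and 121648454 UMIs. Cut sites in peaks were 90948206 in wild type and 77486055 in 5xFAD, so the chromatin of wild type was read more deeply. After removal of 219 and 214 likely doublets, 5015 wild type and 4962 5xFAD nuclei were clustered together with the other 3 libraries and classed by markers. The 2 files shared 36 cell barcodes. Clusters that met no marker rule, or in which over 30% of nuclei held both Xist and Y-linked transcripts, stayed unnamed. Together they held 13.7% of wild type and 13.4% of 5xFAD nuclei. Those past the 30% limit held 10.7% and 8.81%, most of the unnamed nuclei. Nuclei with Xist made up 58.0% of the wild type nuclei that could be sexed and 41.2% of the 5xFAD ones, so sex composition differed between the libraries and results are also given within Xist and within Y nuclei where that bears on them. All 10 CA1, all 12 dentate granule and all 13 microglial markers were above their level over all nuclei in both libraries, while only 6 of 9 subicular markers were, so the subicular class is the least secure name.

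Most classes held similar numbers of nuclei in both libraries. There were 1580 wild type and 1334 5xFAD dentate granule nuclei, 603 and 563 CA1 nuclei, 192 and 171 CA3 nuclei, 308 and 301 oligodendrocytes, and 68 and 47 astrocytes. Microglia were 43 of the wild type nuclei (0.857%) and 84 of the 5xFAD nuclei (1.69%). Excitatory nuclei with Rorb and Cux2, which mark cortical layers, numbered 101 and 236. Shares of a dissected region depend on where the tissue was cut, which the labels do not describe.

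Thy1, the gene whose promoter drives the transgenes, was examined first because it checks the genotype label. Levels are in CPM, the counts per 1000000 UMIs of the class, and the log2 ratio is that of CPM in 5xFAD over wild type, positive where 5xFAD was higher. In the subiculum Thy1 stood at 49.7 CPM in wild type and 355 CPM in 5xFAD, a log2 ratio of 2.84 (2.46 to 3.24). In CA1 it stood at 44.4 and 291 CPM, a log2 ratio of 2.71 (2.59 to 2.84). Dentate granule nuclei had 34.8 and 139 CPM (1.99), and CA3 nuclei had 36.1 and 67.0 CPM (0.89). Wild type levels lay within a narrow band over the neuron types, from 34.8 to 57.6 CPM, while the 5xFAD levels ran in the order subiculum, CA1, deep cortical, dentate granule, inhibitory, Rorb and Cux2 cortical and CA3. Split by sex, the CA1 ratio was 2.70 (Xist) and 2.78 (Y), and the dentate granule ratio was 2.24 and 1.84. The endogenous gene and the transgene cassette cannot be told apart in these counts.

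The open chromatin at Thy1 showed a sharper version of the same pattern. Values there are transposase cut sites, summed over the nuclei of a class, and the intervals count a pair of cut sites as 1 fragment. The region over the Thy1 start (mm10 chr9:44042864-44043763, a promoter region) held 224 cut sites in wild type CA1 nuclei and 5858 in 5xFAD, a log2 ratio of 4.95 (4.67 to 5.23). A region in the last part of the gene (chr9:44048566-44049408, exonic) held 181 and 8718 in CA1 (5.83). The next region upstream, centred 3402 bases before the start (chr9:44039508-44040456), held 36 and 28. The higher signal in 5xFAD ran from the start through the gene and was not seen in the region upstream. An exonic region centred 4214 bases into the gene was listed as a peak in the 5xFAD library alone. At the start, dentate granule nuclei held 579 and 6980 cut sites (3.99), subicular nuclei 23 and 526 (4.73), and CA3 nuclei 116 and 509 (2.22). In glia the raw counts at the start were small: astrocytes held 17 and 7, microglia 2 and 8, oligodendrocytes 1 and 5 and oligodendrocyte precursors 11 and 10. Glia were read far less deeply, with 861118 and 567037 cut sites over all regions in astrocytes, beside 11271684 and 9561135 in CA1. The raw counts therefore do not compare levels between classes. Chromatin of the transgene and of the native locus cannot be told apart here, so the cut sites do not measure how open a single copy was.

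**Figure D1:**
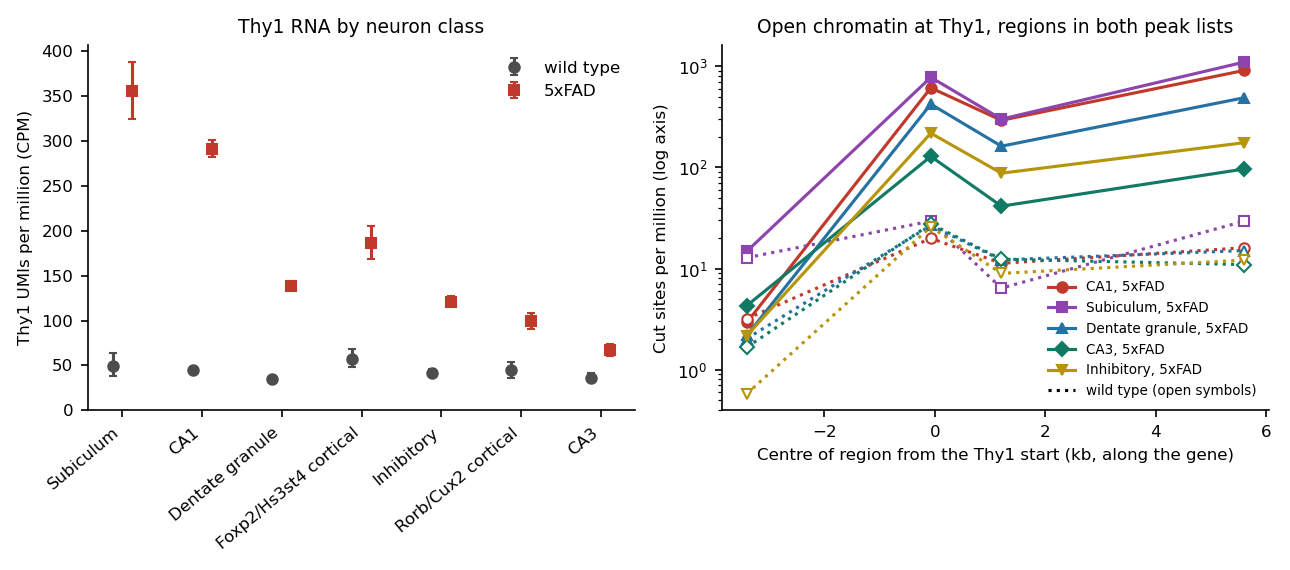
Thy1 RNA and open chromatin by neuron class. Left, Thy1 level in CPM (vertical axis, from 0) for 7 classes in wild type (grey circles) and 5xFAD (red squares), with 95% counting intervals; the 5xFAD level runs from 355 CPM in the subiculum to 67.0 CPM in CA3 while wild type stays low. Right, cut sites per 1000000 (log axis) in the 4 regions that both peak lists hold, against distance from the Thy1 start, 5xFAD in filled and wild type in open symbols; the lines part at the start and lie together in the upstream region.

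Other genes of amyloid production differed less. App, the amyloid precursor itself, was at 546 and 617 CPM in CA1 (0.18, 0.13 to 0.22). A region over an App exon (chr16:85056025-85057617) held 6 wild type and 89 5xFAD cut sites in CA1 (4.13, 2.49 to 6.46) but 26 and 0 in oligodendrocytes. Of the 15 amyloid production genes read in CA1, Thy1 alone was 2-fold higher and the median was 0.06, beside -0.03 over all genes of the class. Human transgene reads that align to the mouse genes would be counted with them, and the sources cannot be told apart.

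Apart from Thy1, CA1 nuclei differed in cholesterol synthesis genes. The ratio of the summed enzymes was largest in CA1 of the classes compared, followed by the subiculum. Differences between neuron types were not tested. Of 14365 genes read in CA1 (20 or more UMIs over both libraries), 0.835% were 2-fold or more higher in 5xFAD and 2.26% were 2-fold or more lower. Of the 20 enzymes from acetyl-CoA to cholesterol, 20 were read, 20 were above 0, 16 were 2-fold higher and 0 were lower, with a median log2 ratio of 1.38 beside -0.03 over all genes. The list is the whole textbook pathway, but it was drawn up after Stard4 had ranked among the highest CA1 genes, so its count is a description. Summed over the 20 enzymes, CA1 nuclei held 263 CPM in wild type and 678 CPM in 5xFAD, a log2 ratio of 1.37 (1.31 to 1.42).

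The early steps of the pathway were all above 0. Hmgcs1, which makes HMG-CoA, had 286 UMIs (20.6 CPM) in wild type and 923 UMIs (71.4 CPM) in 5xFAD, a log2 ratio of 1.79 (1.60 to 1.99). Mvd, the decarboxylase that makes isopentenyl diphosphate, had 26 and 121 UMIs (2.32, 1.70 to 2.99). Idi1, the isomerase that follows, had 55 and 206 UMIs (2.01). Pmvk, the kinase just before Mvd, was the least different of the mevalonate enzymes with 80 and 115 UMIs (0.62).

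The squalene and post-squalene steps followed the same direction. Fdft1, squalene synthase, had 22.7 and 61.8 CPM (1.44), and Sqle, squalene epoxidase, 11.7 and 35.5 CPM (1.60). Msmo1, a sterol methyl oxidase, had 371 and 1134 UMIs (1.71, 1.54 to 1.89), and Nsdhl, the sterol dehydrogenase of the same demethylation complex, had 112 and 457 UMIs (2.13, 1.83 to 2.44). Dhcr7, a late enzyme of the pathway, had 97 and 185 UMIs (1.03). The exception was Ebp, the sterol isomerase, at 3.68 and 4.02 CPM (0.13, -0.46 to 0.72), whose interval spans 0.

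Sterol uptake and sensing genes differed among themselves. Stard4, a carrier that moves cholesterol between membranes, had 20 UMIs in wild type CA1 and 135 in 5xFAD, a log2 ratio of 2.86 (2.17 to 3.61), and Insig1, the sensor that holds the pathway in check, 64 and 238 UMIs (2.00). Srebf2 itself had 66.3 and 114 CPM (0.78, 0.66 to 0.90). Other members were close to 0: the log2 ratio was -0.09 for Scap, the escort of the Srebf2 product, -0.04 for Npc1, the lysosomal cholesterol exporter, and 0.09 and 0.08 for the lipoprotein receptors Lrp1 and Vldlr. In all, 3 of the 10 uptake and sensing genes read were 2-fold higher (median 0.46), beside 0.835% of all CA1 genes, and this list was also drawn up after the values were seen. Among 8 genes of sterol export and turnover, 0 were 2-fold different either way (median -0.05), and Abcg1, an exporter, was the lowest at 345 and 220 UMIs (-0.55, -0.80 to -0.30).

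Fatty acid synthesis was higher to a lesser degree. All 11 genes of the list were read in CA1, 11 were above 0 and 4 were 2-fold higher (median 0.58), beside 0.835% of all CA1 genes. This list too was drawn up after the CA1 values were seen, so the count is a description. Scd1, a stearoyl-CoA desaturase that ranked among the 4 highest CA1 genes and reached 20 UMIs only through 5xFAD, had 4 and 38 UMIs (3.35, 1.88 to 5.30), Fasn, fatty acid synthase, 19 and 69 UMIs (1.96), and Acly, which supplies cytosolic acetyl-CoA, 153 and 298 UMIs (1.06). Srebf1, which drives this branch, was at 2.16 and 2.48 CPM with an interval from -0.57 to 0.96.

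**Figure D2:**
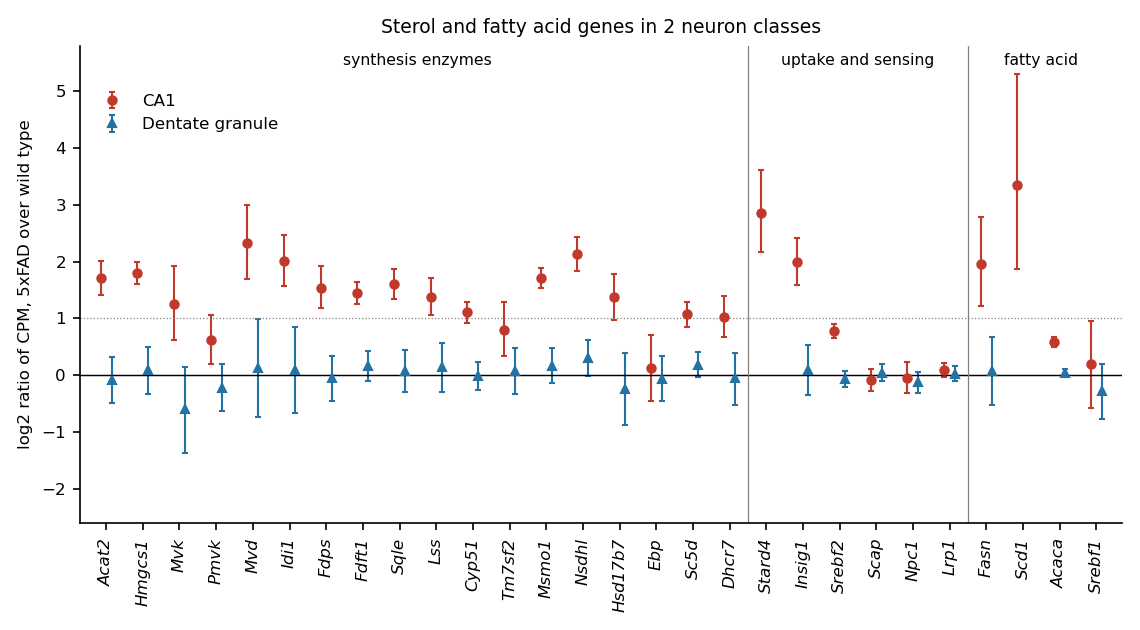
Log2 ratio of CPM, 5xFAD over wild type, for 18 sterol synthesis enzymes, 6 uptake and sensing genes and 4 fatty acid genes, in CA1 (red circles) and dentate granule nuclei (blue triangles), with 95% counting intervals; the dotted line marks 2-fold, and genes under 20 UMIs in a class are left out. Most CA1 enzymes lie at or above the dotted line while dentate granule values lie about 0.

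The difference was spread over the CA1 population. Hmgcs1 was detected in 178 of 603 wild type CA1 nuclei (29.5%) and in 359 of 563 in 5xFAD (63.8%), at median depths of 20822 and 21819 UMIs. In dentate granule nuclei, read at 13048 and 13784.5 UMIs (medians), Hmgcs1 was detected in 5.63% and 6.60%. With every nucleus thinned to 1000 UMIs the CA1 shares were 2.16% and 7.99% and the dentate ones 0.507% and 0.600%. The median CA1 nucleus held 217 CPM of the 20 enzymes in wild type and 611 CPM in 5xFAD, and 90% of 5xFAD nuclei held more than 229 CPM, which is above the wild type median. CA1 nuclei formed 2 clusters, and the median enzyme ratio was 1.35 in the first (386 and 418 nuclei) and 1.54 in the second (217 and 145 nuclei). Within Xist nuclei the sum was 227 and 626 CPM and within Y nuclei 300 and 726 CPM. For Hmgcs1 the log2 ratio was 1.96 (Xist) and 1.61 (Y). The difference was present in nuclei of both sexes.

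The enzymes were then read in the other neuron types. The sum over the 20 enzymes in dentate granule nuclei was 133 CPM in wild type and 141 CPM in 5xFAD (0.09, 0.02 to 0.17), with 0 of 20 enzymes 2-fold different and a median of 0.08. CA3 nuclei held 321 and 450 CPM (0.49, 0.40 to 0.57), with 19 of 20 enzymes above 0 and 0 2-fold higher. CA2 nuclei held 173 and 270 CPM (0.64), on only 35 and 29 nuclei. In the subiculum the sum was 237 and 523 CPM (1.14, 0.94 to 1.34), and 7 of the 11 enzymes that reached 20 UMIs were 2-fold higher, beside 2.91% of all genes there. Some of the 11 reached it mainly through 5xFAD and 9 enzymes were too low to be read, so their median of 1.58 is a description and is not over the same enzymes as that of CA1. Msmo1 had 22 and 86 UMIs (1.87, 1.18 to 2.62). Rorb and Cux2 cortical nuclei held 376 and 437 CPM (0.22), inhibitory nuclei 302 and 378 CPM (0.33), and deep cortical nuclei 550 and 536 CPM (-0.04). Astrocytes, the main site of cholesterol synthesis in the adult brain, held 1216 and 1091 CPM (-0.16, -0.39 to 0.07), and oligodendrocytes 419 and 401 CPM (-0.06). The subiculum and CA1 were the 2 classes with the highest 5xFAD level of Thy1 RNA and the 2 with the largest ratio of the enzyme sum. The deep cortical nuclei ranked next on Thy1, at 186 CPM, and the interval of their sum ratio ran from -0.15 to 0.08.

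**Figure D3:**
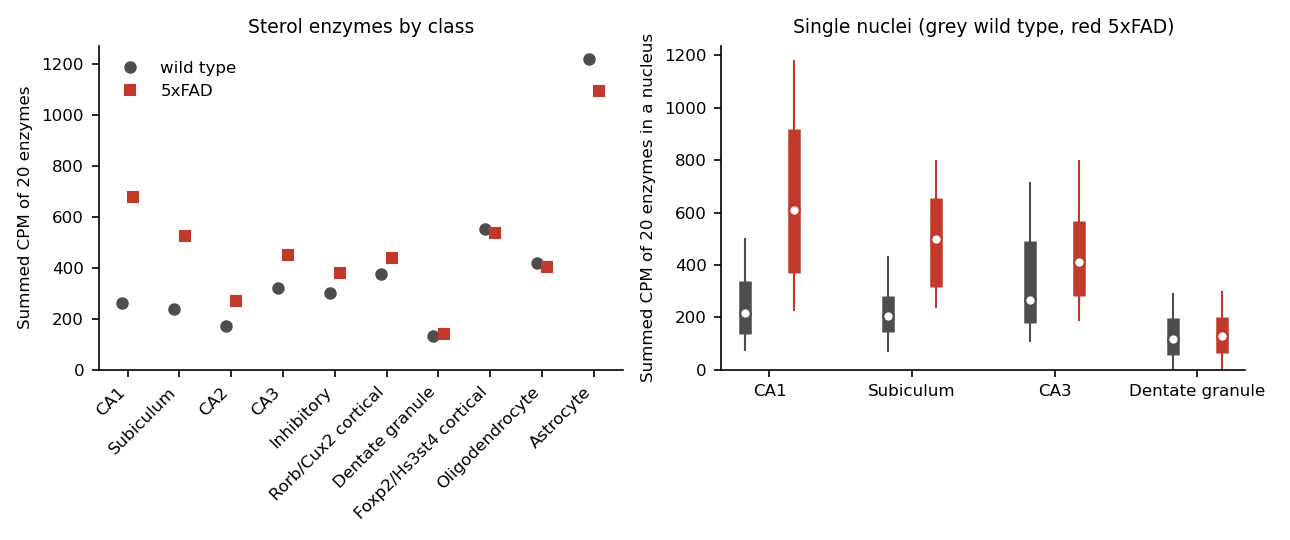
Summed CPM of 20 sterol synthesis enzymes (vertical axes, from 0). Left, the sum for 10 classes in wild type (grey circles) and 5xFAD (red squares), with CA1 at 263 and 678 CPM and dentate granule nuclei at 133 and 141 CPM. Right, the spread over single nuclei, where the open point is the median, the thick bar the middle 50% and the thin line the middle 80%; in CA1 the median moves from 217 to 611 CPM.

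The promoters of the enzymes are shown because the RNA of the pathway was higher as a set. RefSeq promoter sequences on GRCm38.p6 matched 15 of the 20 enzymes, and the 250 bases before the start were searched on both strands for CCAAT, the box of the factor NF-Y, and for TCACNCCAC, the core of a sterol response element. CCAAT was present in 14 of the 15, beside 37.5% of the 27025 genes in the same reference table, and TCACNCCAC in 1 of the 15, beside 1.22%. Below are the 5 matched enzymes with the highest CA1 ratio, 5′ to 3′ along the gene, with both motifs in capitals, as CCAAT or its reverse complement ATTGG and as TCACCCCAC. They lie at chr8:122443423-122443672 on the minus strand, chrX:72918271-72918520 (plus), chr13:8885356-8885605 (plus), chr13:119690101-119690350 (plus) and chr8:64733579-64733828 (minus).
Mvd: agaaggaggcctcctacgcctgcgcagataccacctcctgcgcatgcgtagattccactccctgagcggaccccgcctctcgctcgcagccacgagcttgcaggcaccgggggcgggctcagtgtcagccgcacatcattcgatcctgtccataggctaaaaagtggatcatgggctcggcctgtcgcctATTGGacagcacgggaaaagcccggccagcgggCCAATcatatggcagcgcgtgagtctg
Nsdhl: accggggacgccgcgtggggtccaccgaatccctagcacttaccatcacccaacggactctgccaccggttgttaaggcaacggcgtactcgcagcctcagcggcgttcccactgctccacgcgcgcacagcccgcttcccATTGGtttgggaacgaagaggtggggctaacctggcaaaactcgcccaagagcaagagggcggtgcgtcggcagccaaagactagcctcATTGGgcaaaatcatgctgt
Idi1: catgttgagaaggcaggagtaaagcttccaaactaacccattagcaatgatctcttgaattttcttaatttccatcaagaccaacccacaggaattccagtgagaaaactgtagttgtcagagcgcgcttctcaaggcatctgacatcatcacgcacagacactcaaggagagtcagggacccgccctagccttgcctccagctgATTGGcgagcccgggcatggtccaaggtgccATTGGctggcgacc
Hmgcs1: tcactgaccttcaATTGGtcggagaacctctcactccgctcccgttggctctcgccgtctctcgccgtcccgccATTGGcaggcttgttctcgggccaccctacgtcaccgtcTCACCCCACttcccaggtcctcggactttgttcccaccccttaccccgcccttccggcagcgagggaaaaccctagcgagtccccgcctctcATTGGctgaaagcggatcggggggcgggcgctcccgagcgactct
Msmo1: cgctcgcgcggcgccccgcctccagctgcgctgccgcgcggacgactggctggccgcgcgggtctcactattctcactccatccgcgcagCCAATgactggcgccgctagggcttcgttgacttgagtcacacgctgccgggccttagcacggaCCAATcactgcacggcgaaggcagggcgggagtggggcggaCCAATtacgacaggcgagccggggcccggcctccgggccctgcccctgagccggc
Mvd and Nsdhl carry 2 CCAAT boxes each, Idi1 2, and Hmgcs1 and Msmo1 3, and of the 5 Hmgcs1 alone holds an exact match to TCACNCCAC. Sterol elements that differ from this core were not searched for. The stretches end at the RefSeq start, whereas the chromatin results use the GENCODE start, which lies 105 bases earlier in Idi1 and 214 bases earlier in Msmo1. The 2 boxes of Idi1 and the 3 of Msmo1 lie before the RefSeq start but after the GENCODE one. A match of letters is not a measured site.

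Open chromatin at the starts of these enzymes differed far less than their RNA. Of the 20 enzymes, 17 had a region over the start that was read in CA1, of which 15 were above 0 and 0 were 2-fold different. The median log2 ratio was 0.13 beside -0.01 over all regions, of which 3.26% were 2-fold higher and 4.84% 2-fold lower. Starts above 0 numbered 10 of 17 in dentate granule, 8 of 17 in CA3 and 16 of 17 in inhibitory nuclei. The region over the Hmgcs1 start (chr13:119689810-119690708) held 633 and 542 cut sites, a log2 ratio of 0.01 (-0.23 to 0.25) after scaling for depth. The region over the Insig1 start (chr5:28070811-28071663) held 483 and 556 cut sites, a log2 ratio of 0.44 (0.19 to 0.70), under that of its RNA.

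Among the remaining CA1 genes, the 4 lowest by the naming rule were Gpc3, Bace2, Car5b and Platr6. Gpc3, a cell surface proteoglycan, had 272 UMIs in wild type and 81 in 5xFAD (-1.65), but 271 of the wild type UMIs came from the second CA1 cluster and the ratio had opposite signs in the 2 sexes, -2.89 (Xist) and 1.53 (Y). Bace2, a relative of beta-secretase, had 64 and 15 UMIs (-1.99, -2.91 to -1.16) from 27 and 12 nuclei. Car5b, a mitochondrial carbonic anhydrase, had 35 and 7 UMIs (-2.22). Bace2 rests on few nuclei, against 359 5xFAD nuclei with Hmgcs1.

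Immediate early genes, which report recent neuronal activity, were mostly lower in 5xFAD in CA1, inhibitory and deep cortical nuclei. In CA1, 18 of 20 were below 0, 3 were 2-fold lower, beside 2.26% of all CA1 genes, and the median was -0.42. Nr4a3, a nuclear receptor induced by activity, had 109 and 66.4 CPM in CA1 (-0.71, -0.83 to -0.59), with ratios of -0.42 (Xist) and -0.81 (Y) by sex. Fosl2, an AP-1 component, had 195 and 85 UMIs (-1.10). Bdnf, the neurotrophin, had 67.3 and 46.1 CPM (-0.54). In inhibitory nuclei 20 of 20 were below 0 (median -0.47), among them Nr4a2 at 20.3 and 9.29 CPM (-1.13, -1.47 to -0.80) and Bdnf at 29.6 and 13.6 CPM (-1.12). Both Xist and Y-linked transcripts were held by 22.96% of wild type and 20.53% of 5xFAD inhibitory nuclei. In excitatory nuclei the shares were 8.34% and 5.79%. The part of doublets in the results for inhibitory nuclei, Bdnf among them, was not tested. Inhibitory nuclei as a whole had 0.905% of 15031 genes 2-fold higher and 1.43% 2-fold lower. In deep cortical nuclei 19 of 20 were below 0 and 7 were 2-fold lower (median -0.56), with Fos at 39 and 13 UMIs (-1.63), beside 1.93% of 10411 genes 2-fold lower and 1.54% higher, but that median was 0.03 within Xist nuclei and 0.17 with nuclei thinned to 1000 UMIs. Arc, the synaptic plasticity gene, had intervals that span 0 in these classes, with ratios of -0.15 in CA1 (-0.40 to 0.09), -0.01 in inhibitory and -0.32 in deep cortical nuclei. In CA3 nuclei 15 of the 19 read were below 0 (median -0.28), with 1 2-fold lower and 1 2-fold higher, beside 2.33% and 0.947% of all genes there. Rorb and Cux2 cortical nuclei went the other way, with a median of 0.12 and 15 of 20 above 0, and that median was -0.93 in Xist nuclei and 0.46 in Y nuclei.

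Dentate granule nuclei had the smallest share of 2-fold higher genes of the classes compared, with 0.477% of 15315 genes 2-fold higher and 1.46% 2-fold lower. The classes were not matched for depth, and this one held 22077167 and 19373474 UMIs. Nr4a3 had 154 and 45 UMIs (-1.59, -2.10 to -1.10), found in 127 and 38 nuclei, and was lower in Xist (-1.95) and in Y nuclei (-1.84). Arc had 27 and 7 UMIs (-1.76). The median of the 16 immediate early genes read was only -0.14, and these were the 2 genes of the list that were 2-fold lower. Dach1, a transcription factor of developing neurons, had 897 UMIs in wild type and 395 in 5xFAD (-0.99, -1.17 to -0.82), from 299 and 154 nuclei. It was lower in both main granule clusters, at 44.9 and 25.4 CPM in the first and 26.6 and 8.33 CPM in the second. Scn7a, a sodium channel family member, had 62 and 18 UMIs (-1.60). On the high side, Xlr4b had 0 and 20 UMIs, an interval for the log2 ratio that starts at 2.49, and Plb1, a phospholipase, had 16 and 44 UMIs (1.65).

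Chaperone genes were a little higher in 5xFAD in most neuron types, with larger ratios in Y than in Xist nuclei. The list median was 0.22 in dentate granule, 0.23 in CA1, 0.21 in CA3 and 0.22 in inhibitory nuclei, and within Xist nuclei alone it was -0.14 in CA1 and -0.07 in CA3. Hsph1, a co-chaperone of the Hsp70 system, had 32.7 and 64.6 CPM in CA3 (0.98, 0.73 to 1.24), where 0.947% of 12355 genes were 2-fold higher. In CA3 Y nuclei it had 35.8 and 83.0 CPM (1.21, 0.84 to 1.60) and in CA3 Xist nuclei 31.5 and 38.8 CPM (0.30, -0.15 to 0.74). The same held in dentate granule nuclei, with 22.5 and 39.5 CPM in Y (0.81) and 18.2 and 22.2 CPM in Xist nuclei (0.29), and in inhibitory nuclei, with ratios of 1.06 and 0.24. In CA1 the ratio was 0.56 (0.34 to 0.79) in Y nuclei and -0.17 (-0.48 to 0.14) in Xist nuclei, and -0.53 over all CA1 nuclei thinned to 1000 UMIs. Hspa4l, another Hsp110 protein, followed with 0.69 in Y and 0.09 in Xist inhibitory nuclei. The endoplasmic reticulum chaperone Hspa5 was not part of this and was lower in CA1, at 44.8 and 37.0 CPM (-0.28). Whether the split follows sex or single animals cannot be told apart, since nuclei of 1 sex may come from 1 mouse.

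**Figure D4:**
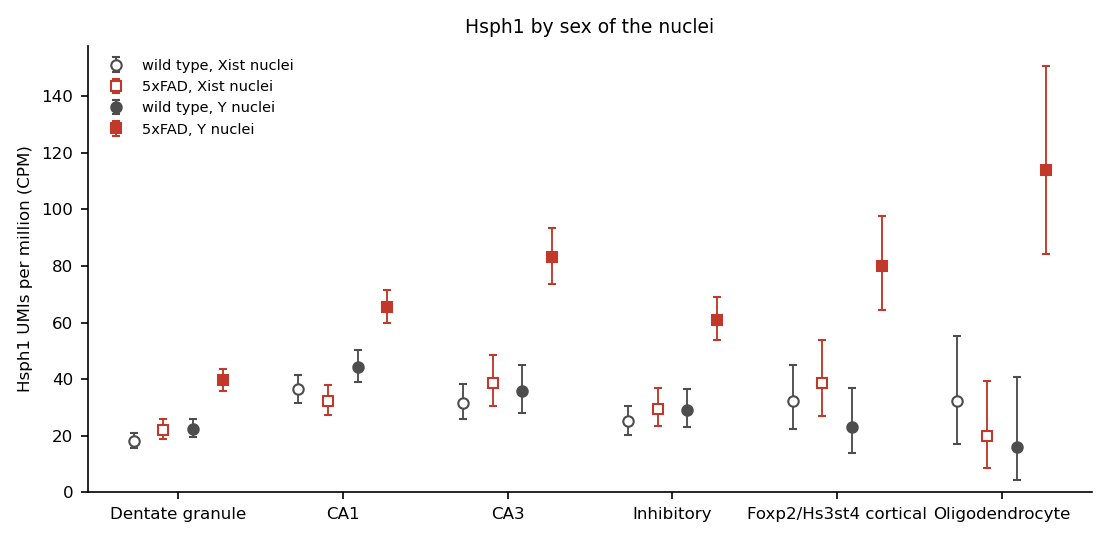
Hsph1 level in CPM (vertical axis, from 0) in 6 classes, split into nuclei with Xist (open symbols) and nuclei with Y-linked transcripts (filled), for wild type (grey circles) and 5xFAD (red squares), with 95% counting intervals. The filled red squares lie above the other 3 points in every class drawn, for example at 83.0 CPM in CA3.

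In CA3 the lowest genes rested on a few wild type nuclei. Vgll3, a transcription cofactor, had 129 UMIs in wild type and 1 in 5xFAD, but the 129 came from 7 nuclei and 47 from a single one. Cd44, a hyaluronan receptor, had 40 and 2 UMIs from 8 and 2 nuclei. The genes that were higher were more widely spread: Mars2, the mitochondrial methionyl-tRNA synthetase, had 25 and 63 UMIs (1.45) in 22 and 49 nuclei, and Ehhadh, a peroxisomal enzyme of fatty acid oxidation, 7 and 27 UMIs (2.06) in 5 and 21 nuclei. CA3 had 2.33% of genes 2-fold lower.

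In the subiculum, where 2.91% of 8588 genes were 2-fold higher and 1.9% lower, Thy1, Cped1 and Tspan12 were among the 4 highest. Cped1 had 1 and 22 UMIs, a log2 ratio of 4.36 with an interval from 1.73 to 9.73, and Tspan12, a tetraspanin, had 8 and 42 UMIs (2.29). Tiparp, an ADP-ribosyltransferase, was lower with 47 and 13 UMIs (-1.95). In CA2, on 35 and 29 nuclei, the highest gene by the naming rule was Atp7a, a copper transporter, at 34.0 and 97.6 CPM (1.52), and the 2 lowest were Smim8 at 20 and 0 UMIs and Zbed4 at 27 and 1 UMIs (-4.26), beside 1.91% and 3.86% of 8116 genes. In Rorb and Cux2 cortical nuclei, where 1.49% of 11491 genes were 2-fold higher and 2.61% lower, Npnt, the matrix protein nephronectin, had 24 and 143 UMIs (1.57, 0.94 to 2.26) in 16 and 59 nuclei. Rspo2, a Wnt agonist, was lower there at 94.2 and 33.5 CPM (-1.49, -1.80 to -1.19), with 51 of the 216 wild type UMIs in 1 nucleus.

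Over all excitatory nuclei 1.18% of 18701 genes were 2-fold higher and 0.941% lower, and Thy1 was among the 8 highest. Lef1, a Wnt transcription factor, had 246 and 1126 UMIs (2.20), of which 67 and 871 came from 1 small unnamed cluster that held 3 wild type and 39 5xFAD nuclei. Over all 5 libraries the nuclei of that cluster had a median of 30177 UMIs and a median doublet score of 0.747, and 29.5% of them held both Xist and Y-linked transcripts, which nuclei of 1 animal should not. The part of doublets in the Lef1 result was not tested. Within that cluster Lef1 stood at 742 CPM in wild type and 461 CPM in 5xFAD, so it was not higher there. Adamts19, an extracellular protease, had 34 of 72 and 480 of 535 UMIs in the same cluster. Tnc, the matrix protein tenascin C, had 10 and 150 UMIs, and 33 of the 150 lay in 1 nucleus. Of the 150, 62 lay in the same small cluster and 73 in another excitatory cluster that has no subtype name. That other cluster held 51 wild type and 141 5xFAD nuclei. Oasl2, an interferon-induced gene, had 2 and 32 UMIs (4.01, 2.03 to 7.11) in 2 and 17 nuclei, and 0 of them lay in the small cluster. Dcn, the proteoglycan decorin, was lower at 15.8 and 8.23 CPM (-0.94, -1.09 to -0.79). It is 1 of the markers used to name CA1, and the make-up of the excitatory class differed. The second CA1 cluster held 217 and 145 nuclei and the Rorb and Cux2 cortical class 101 and 236. The part of make-up in the Dcn ratio was not tested.

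In CA1, synaptic and energy genes were close to equal in both libraries by their medians. Below 0 were 22 of 29 glutamatergic synapse, 15 of 18 GABAergic synapse, 12 of 25 respiratory chain and 12 of 20 potassium channel genes. The median over 29 glutamatergic synapse genes was -0.04 with 0 genes 2-fold different, over 18 GABAergic synapse genes -0.08 with 0, over 25 respiratory chain genes 0.01 with 0 and over 20 potassium channel genes -0.03 with 0, beside -0.03 over all genes. Single members differed in other classes. Gabra5, a GABA-A receptor subunit, had 172 UMIs in the 101 wild type and 145 in the 236 5xFAD Rorb and Cux2 cortical nuclei (-1.25, -1.58 to -0.92), where 2 of 15 GABAergic genes were 2-fold lower, beside 2.61% of all genes. Gabrg3, another subunit, had 150 and 68 UMIs in CA3 (-1.03), the 1 of 14 that was 2-fold lower there, beside 2.33% of all genes, so 1 gene is near the background. In dentate granule nuclei 2 of 18 were 2-fold lower, beside 1.46% of all genes, Gabra3 on 28 and 11 UMIs and Slc32a1 on 27 and 10. Kcnh7, a potassium channel, had 122 and 37 UMIs in CA3 (-1.61, -2.18 to -1.07). Uqcrb, a subunit of respiratory complex III, had 7 and 32 UMIs in Rorb and Cux2 cortical nuclei (1.19), with an interval that spans 0. These members were chosen after their values were seen. The 9 endocannabinoid genes had a median of -0.01 in CA1 and 0.0050 in dentate granule nuclei. In deep cortical nuclei the respiratory chain median was 0.23, with 17 of 25 genes above 0, 8 below and 0 2-fold different. Sdha, a subunit of succinate dehydrogenase, also chosen after its value was seen, was at 44.1 and 63.8 CPM (0.53).

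Microglia had the largest share of genes 2-fold higher of the classes compared, with 11.7% of 3461 genes 2-fold higher in 5xFAD and 4.8% lower. The classes were not matched for depth, so counting error may enter this ranking. Microglia held 95166 and 226443 UMIs in all, beside 22077167 and 19373474 in dentate granule nuclei. They are a small class, at 43 and 84 nuclei with median depths of 2146 and 2529.5 UMIs. Scaling by the median gene in place of the total moved all microglial ratios up by 0.22 on the log2 scale, so ratios are read relative to that shift and values near 0 have no settled sign. Oligodendrocyte markers summed to 105 CPM in wild type and 852 CPM in 5xFAD microglia, with 7 and 1 of 12 markers at 0, and their part in the microglial results was not tested.

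The microglia fell into 2 clusters that the libraries filled very differently. The cluster called g6 held 42 of the 43 wild type nuclei and 29 of the 84 5xFAD nuclei, and the cluster called g5 held 1 and 55. The g5 share of 5xFAD microglia was 65.5% (54.3% to 75.5%) and that of wild type 2.33% (0.0589% to 12.3%). Both sexes filled g5, with 30 Xist and 17 Y nuclei from the 5xFAD library. The clusters were made from the same genes, so the levels that follow describe them and support nothing further.

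Genes of the disease-associated program were highest in g5. Apoe, the lipid carrier, had 6 UMIs in all wild type microglia (63.0 CPM), 61 in the 29 g6 nuclei of 5xFAD (927 CPM) and 1563 in the 55 g5 nuclei (9732 CPM). It was detected in 4 wild type microglia (9.30%) and in 64 5xFAD microglia (76.2%), or in 7.14% and 71.4% of nuclei thinned to 1000 UMIs, beside 10.1% and 11.4% of the much deeper dentate granule nuclei (0.634% and 1.65% thinned). Ank, a pyrophosphate and ATP exporter, had 11, 8 and 262 UMIs in the same 3 groups, and Myo1e, an unconventional myosin, 7, 4 and 160. Cst7, a cathepsin inhibitor, had 1, 1 and 52. Igf1, the growth factor, and Axl, a receptor for dying cells, were at 0 in wild type and in g6 and had 45 and 29 UMIs in g5. Against wild type, 13.5% of 3461 genes were 2-fold higher in g5 and 9.16% lower, and in g6 of the 5xFAD library 9.74% of 3389 genes were higher and 9.74% lower. Of the 29 genes of this list 22 were read, and 19 of those were 2-fold higher in g5. A gene near 0 in wild type could be read only by being high in 5xFAD, so these counts describe the genes that passed. In g6, 16 of them had more than 3 UMIs on either side, and of those 1 was 2-fold higher, Apoe, and 0 were lower.

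Homeostatic genes had the opposite arrangement. P2ry12, the purinergic receptor of resting microglia, stood at 1639 CPM in wild type, 1808 CPM in 5xFAD g6 and 666 CPM in 5xFAD g5. Tmem119 stood at 263, 334 and 74.7 CPM, and Selplg, a selectin ligand, at 1482, 1306 and 560 CPM. Cx3cr1, the fractalkine receptor, was lower in both, at 1807, 1154 and 728 CPM. Of 20 homeostatic genes, 7 were 2-fold lower in g5, beside 9.16% of all genes, and 0 in g6, beside 9.74%.

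Some class I and interferon genes were higher in g6 as well as in g5. H2-D1, a class I heavy chain, stood at 63.0 CPM in wild type, 258 CPM in 5xFAD g6 and 467 CPM in g5, and H2-K1 at 63.0, 289 and 318 CPM. In g6 the log2 ratios against wild type were 2.03 and 2.19. Nlrc5, the activator of class I genes, had 1, 7 and 20 UMIs. Tapbp, which loads peptide onto class I, went the other way in g6, with 9, 2 and 15 UMIs and a ratio of -1.64 (-4.89 to 0.63) against wild type. Of the 6 class I genes read, 3 were 2-fold higher and 1 lower in g6, beside 9.74% of all genes in either direction, and 5 were higher in g5, beside 13.5%. Some of the 6, such as Nlrc5, reached 20 UMIs mainly through 5xFAD, so these counts describe the genes that passed. Parp14, an interferon-induced gene, had 5, 7 and 42 UMIs, and Oasl2 had 0, 1 and 23 UMIs. Of the 22 interferon genes 11 were read, in part through 5xFAD counts alone, and 10 of those were 2-fold higher in g5, beside 13.5% of all genes, which again describes the genes that passed. In g6, 4 of the 9 with more than 3 UMIs on either side were 2-fold higher, beside 9.74% of all genes, among them Ifih1 on 6 UMIs, Parp14 on 7 and Sp100 on 6. Lysosomal genes were higher in part: 8 of 21 in g5, beside 13.5% of all genes, among them Npc2, a cholesterol carrier of the lysosome, at 94.6, 91.1 and 380 CPM. The complement genes showed 0 of 7 2-fold different in either cluster, with C1qa at 1482, 1792 and 1911 CPM.

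**Figure D5:**
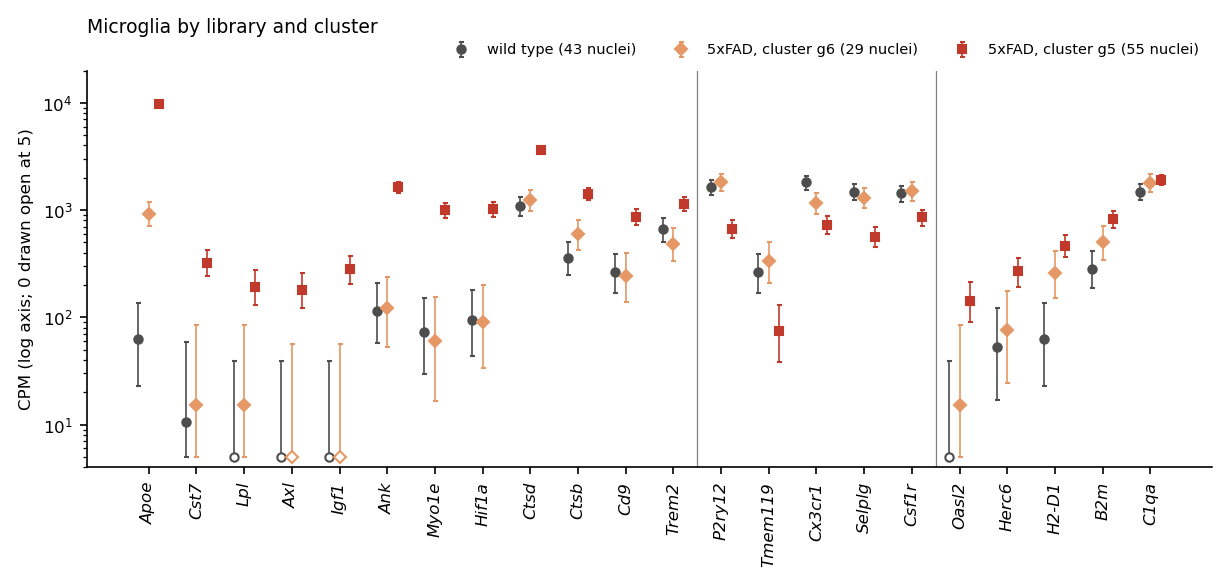
Level of 22 genes in CPM (log axis) in wild type microglia (grey circles, 43 nuclei), 5xFAD microglia of cluster g6 (orange diamonds, 29 nuclei) and of cluster g5 (red squares, 55 nuclei), with 95% counting intervals; a level of 0 is drawn open at 5. Vertical lines part disease-associated, homeostatic, and interferon, class I and complement genes. The g6 diamonds sit by the wild type circles for most genes of the first and middle blocks, with Apoe apart at 927 CPM.

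Microglial genes outside the lists were ranked as well. Fgf13, an intracellular regulator of sodium channels and microtubules, had 504 and 3087 CPM (2.61, 2.19 to 3.07) over all microglia, in 19 and 65 nuclei, and Ptchd1 had 1 and 62 UMIs in 1 and 28 nuclei. Ctnna3, an alpha-catenin, had 0 and 95 UMIs, but 51 of the 95 lay in 1 nucleus. The lowest were Icam1, an adhesion molecule, at 15 and 5 UMIs (-2.84, -4.65 to -1.30), Nhs at 35 and 19 UMIs (-2.13) and Bank1, a scaffold of immune receptors, at 42 and 28 UMIs (-1.84). Mgll was also among the 8 lowest, at 31 and 24 UMIs (-1.62, -2.45 to -0.80), in 21 of 43 and 16 of 84 nuclei.

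Oligodendrocytes had 1.93% of 7775 genes 2-fold higher and 2.78% lower, and 1 gene stood far from the rest. C4b, complement component 4, had 4 UMIs (4.76 CPM) in 308 wild type nuclei and 139 UMIs (142 CPM) in 301 5xFAD nuclei, a log2 ratio of 4.90 (3.52 to 6.80). It was detected in 1.30% and 24.3% of oligodendrocytes, or 0.326% and 10.7% when thinned to 1000 UMIs, beside 0.0633% and 0.300% of dentate granule nuclei. By sex it had 1 and 65 UMIs (Xist) and 1 and 53 UMIs (Y). The chromatin was higher too: the region over the C4b start (chr17:34743763-34745028, promoter) held 8 and 53 cut sites, a log2 ratio of 2.99 (1.46 to 4.97). It was among the 4 highest regions by the naming rule, which left out chromosomes X, Y and 18. Of all 27766 regions read, 4.24% were 2-fold higher.

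Of the 13 genes of the disease-associated oligodendrocyte list, 6 reached 20 UMIs. C4b, B2m, H2-D1 and H2-K1 did so mainly through their 5xFAD counts, so the number of higher genes among the 6 says little about the list. Stat3, the cytokine-activated transcription factor, had 45.2 and 138 CPM (1.61, 1.08 to 2.17), higher in Xist (1.99) and Y nuclei (1.37). B2m, the class I light chain, had 4 and 25 UMIs (2.43, 0.89 to 4.41). H2-D1 had 7 and 20 UMIs and H2-K1 5 and 15, and both intervals reached 0. Serpina3n, an acute phase protease inhibitor, had 0 and 10 UMIs and was below the 20 needed. Il33, an alarmin made by oligodendrocytes, was higher by 0.26 (0.02 to 0.50). The regions over the Stat3 and Hsph1 starts did not follow the RNA, at 358 and 305 cut sites (0.03) and 259 and 244 (0.17).

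Myelin genes were level. Of 18, 0 were 2-fold different and the median was 0.04. Mbp was at 4557 and 4704 CPM (0.05) and Mog at 895 and 961 CPM (0.10). Cldn11, the tight junction protein of myelin, was the highest at 485 and 653 CPM (0.43, 0.25 to 0.61). Hsph1 had 19 and 68 UMIs (1.62), with ratios of 2.84 in Y nuclei and -0.69 in Xist nuclei, the latter on 13 and 8 UMIs. Among lower genes, Cd74 had 42 and 0 UMIs, and all 42 came from 1 wild type nucleus, while Tatdn3 had 39 and 9 UMIs (-2.33) in 33 and 8 nuclei. Neuronal transcripts, a measure of free RNA in glial nuclei, had a median of -0.60 over 7 genes, and their part in the oligodendrocyte results was not tested.

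Astrocytes and precursors showed few differences that their counts could carry. Astrocytes had 3.94% of 4614 genes 2-fold higher and 4.05% lower on 68 and 47 nuclei. Gfap, the intermediate filament of reactive astrocytes, had 26 and 26 UMIs (0.31, -0.53 to 1.15), Clu, clusterin, 1015 and 1276 CPM (0.33, 0.10 to 0.56), Cst3, cystatin C, 2238 and 2661 CPM (0.25) and Apoe 3051 and 3636 CPM (0.25, 0.12 to 0.39). C4b, so different in oligodendrocytes, had 18 and 15 UMIs here (0.04, with an interval that spans 0). The reactive list had a median of 0.25 over 11 genes and the homeostatic list -0.08 over 18. Slc1a2, the main glutamate transporter, was at 7500 and 7472 CPM (-0.01). Ttr had 190 and 21 UMIs, 150 of them in 1 wild type nucleus. Oligodendrocyte precursors had 1.96% of 6934 genes higher and 3.22% lower, 12 of 12 identity genes within 2-fold and a median of 0.05.

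Open chromatin outside the Thy1 and App genes was broadly shared. The authors listed 172450 peaks in wild type and 170190 in 5xFAD, which merged into 191488 regions, of which 150800 (78.8%) were listed in both, 21472 (11.2%) in wild type alone and 19216 (10.0%) in 5xFAD alone. A peak listed in 1 library has no count in the other, so such regions have no ratio. Over excitatory nuclei 0.335% of 150705 regions were 2-fold higher in 5xFAD and 0.245% lower. By the naming rule, which left out chromosomes X, Y and 18, 3 of the 4 highest were the Thy1 regions. The fourth was an Astn2 intron (chr4:65761787-65762798) with 6 and 76 cut sites. The lowest by that rule was an intron of Insc (chr7:114842476-114843453) with 48 and 0. In oligodendrocytes, where 6.43% of regions were 2-fold lower, an intron of Mitf, a transcription factor gene (chr6:97882921-97883816), had 61 and 2 cut sites.

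In microglia 9.42% of 13701 regions were 2-fold higher and 6.96% lower. The region over the Apoe start (chr7:19698668-19699598) held 2 and 34 cut sites (2.96, 0.29 to 8.35), and the one over the Cd9 start 6 and 36 (1.46, -0.32 to 3.86). The starts of 12 disease-associated genes had a median of 0.24 with 3 2-fold higher, and those of 9 homeostatic genes -0.11, beside -0.0078 over all regions. These starts are fewer than the genes read in RNA, so the medians of the 2 readouts are not over the same members. The 3 higher starts, those of Apoe, Cd9 and Csf1 (12 and 66 cut sites), reached the cut site minimum only with their 5xFAD counts. A start near 0 in wild type could be read only by being high in 5xFAD. The count and median of the disease-associated starts therefore describe the starts that passed. An Axl intron (chr7:25776429-25777371) was listed in 5xFAD alone, with 67 cut sites in microglia. The same held at Cx3cr1, a gene lower in RNA, for an intron (chr9:120034110-120034993) with 65 cut sites. It also held for a region centred 1483 bases into Cx3cr1 (chr9:120067984-120068809) with 71. Microglia had 374641 cut sites in wild type and 818093 in 5xFAD. The 4 highest regions by the naming rule, at 44, 44, 39 and 38 cut sites in 5xFAD and 0 in wild type, lay in exons of Gm46328, Rap2b and Efr3b and an intron of Slc16a7.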

How the data were processed

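The deposited files hold a count per nucleus: whole UMIs per gene and whole transposase cut sites per peak, made by the authors with Cell Ranger ARC 2.0.0 and Seurat on mm10, per the submitters' processing notes. Nuclei with under 500 detected genes or over 5% mitochondrial UMIs were left out, and likely doublets were removed by similarity to simulated doublets at 0.8% per 1000 nuclei. All 5 libraries were clustered together (leidenalg 0.10.2, igraph 0.11.9, 2000 variable genes, 40 components) and named by markers, with naming thresholds set after the clusters were seen. UMIs were summed per class and library, scaled to counts per 1000000 UMIs (CPM), and compared as a log2 ratio with an exact conditional binomial interval (scipy 1.17.1, numpy 2.4.6, pandas 2.3.3). A gene or region needed 20 counts over both libraries, and a count of 0 was set to a floor of 3 in ratios. Peaks of the 2 libraries that overlapped by 1 base were merged. A promoter region lies within 1000 bases before to 100 after a gene start. Genes were named as members of lists or as the highest and lowest of a class, ranked by the bound of the interval nearest to 0. The members and lists were chosen with earlier results of these data known. Some genes of these lists are not reported here by name. The estimator was run on counts simulated with counting error alone, which is what its interval assumes. That run therefore says nothing of variation between nuclei, animals or libraries. Figures were drawn with matplotlib 3.10.9.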

Additional observations from a re-analysis of the deposited data

Results flagged for a closer look

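Several comparisons had opposite signs in the nuclei with Xist and in those with Y-linked transcripts, which may also separate animals, and none of these differences was tested. Gpc3 in CA1 had a log2 ratio of -2.89 in Xist nuclei (161 wild type and 16 5xFAD UMIs) and 1.53 in Y nuclei (16 and 62 UMIs). The immediate early gene median in Rorb and Cux2 cortical nuclei was -0.93 in Xist and 0.46 in Y nuclei. The chaperone median was -0.14 and 0.39 in CA1 and -0.070 and 0.32 in CA3. The fatty acid synthesis median in inhibitory nuclei was -0.064 and 0.065.

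The other 3 libraries, all 5xFAD with a knockout of Mgll, took no part in the comparison. The sum over 20 sterol synthesis enzymes in their CA1 nuclei was 692 CPM in the astrocyte knockout, 576 CPM in the neuron knockout and 590 CPM in the global knockout, beside 263 CPM in wild type and 678 CPM in 5xFAD. In the subiculum the sums in the same order were 624, 474 and 461 CPM, beside 237 and 523 CPM. In dentate granule nuclei, where wild type and 5xFAD held 133 and 141 CPM, the sums were 226, 187 and 215 CPM, above both. These differences were not tested either, with 1 library a group.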

How the results depend on the processing

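A value under an alternative setting was called the same if it lay inside the interval of the main value, or within 1.5-fold for counts. It was called reversed only where that interval excluded 0, so a change of sign inside an interval spanning 0 counts as the same. Of 168 values for the main comparisons, 137 were the same, 29 moved and 2 reversed. Of 1792 values for the other comparisons, 1461 were the same, 318 moved and 13 reversed. Counts of genes past 2-fold, over both groups, were the same in 182 of 322. The microglial share of 5xFAD was 2.46% of Xist and 1.24% of Y nuclei. Counts of 2-fold genes followed the count minimum: with at least 50 and at least 5 UMIs they were 44 and 871 lower in dentate granule, 34 and 540 higher in CA1, 124 and 1254 in microglia and 28 and 698 in oligodendrocytes, beside 224, 120, 406 and 150. A pseudocount of 5 CPM gave 1, 14 and, in oligodendrocytes, 56. Microglia gave 255 in Xist nuclei, 159 in Y nuclei and 171 thinned, and oligodendrocytes 454 by marker scores and 95 thinned. Microglial regions 2-fold higher fell from 1290 to 314 at 50 cut sites. In cluster g6 alone, added after seeing the data, the disease-associated median was 0.17 and the homeostatic one 0.00072, and by marker scores the latter was -0.15. The sterol median in CA1, also added after seeing the data, was 0.99 with the pseudocount. Thy1 in dentate granule nuclei was 2.24 in Xist, 1.84 in Y, 2.31 thinned and 1.85 with the pseudocount, and in CA1 2.53 by marker scores and 2.59 with the pseudocount. The chaperone median in CA1 was -0.14 in Xist and 0.39 in Y nuclei. In Xist nuclei the sign also turned for immediate early genes in Rorb and Cux2 (-0.93) and deep cortical nuclei (0.030), for chaperones in CA3 (-0.070) and excitatory nuclei (-0.038), for amyloid production in excitatory nuclei (-0.016), for fatty acid synthesis in inhibitory nuclei (-0.064) and for Hsph1 in oligodendrocytes (-0.69) and CA1 (-0.17). In Y nuclei Gpc3 in CA1 was 1.53. Thinned, Hsph1 in CA1 was -0.53, deep cortical immediate early genes 0.17 and excitatory respiratory genes -0.018. By marker scores neuronal transcripts in oligodendrocytes were 0.92. The causes were not tested. Astrocytes had no named cluster without doublet removal or from the 2 libraries alone, so those settings give no astrocyte value. No paired analysis was possible because a single library stands for either genotype.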
